A study of Mus musculus with 37 samples.

Results

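Ribosome-bound RNA of dopamine neurons and of GABA neurons was compared in aged ventral midbrain. The comparison used every library labelled old: 9 from DAT;NuTRAP mice and 8 from VGAT;NuTRAP mice, 17 of the 37 libraries in the series. The 9 old DAT;NuTRAP libraries came from 4 females and 5 males aged 21 months. The 8 old VGAT;NuTRAP libraries came from 5 females and 3 males, also aged 21 months except for 1 female of 24 months. The 20 young libraries (10 of each model, 7 to 10.5 months) served only to ask whether the contrast between the cell types was kept with age.

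Every mouse carried the NuTRAP cassette, which makes a GFP-tagged ribosomal protein L10a wherever Cre recombinase has been active. In DAT;NuTRAP mice Cre came from an IRES-cre allele of the dopamine transporter gene Slc6a3, and in VGAT;NuTRAP mice from a Vgat-ires-cre allele of the vesicular GABA transporter gene Slc32a1, so a cell that used either gene at any earlier time also carries the tag. Ventral midbrain holding the substantia nigra and the ventral tegmental area was dissected, tagged ribosomes were pulled down with an antibody to GFP, and their RNA gave 1 library per mouse. All libraries described here are of this GFP-bound fraction. The labels and methods name no pooled animals.

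Dopamine neurons make dopamine from tyrosine in steps run by tyrosine hydroxylase (Th) and aromatic amino acid decarboxylase (Ddc), load it into vesicles through Slc18a2 and take it back up through Slc6a3. GABA neurons make GABA from glutamate with the enzymes of Gad1 and Gad2 and load it through Slc32a1. In the ventral midbrain the dopamine neurons are slow, regular pacemakers, whereas many of the neighbouring GABA neurons fire fast and narrow spikes and inhibit them. Dopamine neurons of the substantia nigra are among the cells lost in Parkinson disease.

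The old libraries held between 13841253 and 36247538 counted reads, and 15495 genes passed the filter on low counts. Values are CPM, counts scaled to library size with edgeR's TMM factors, and log2 fold changes are DAT;NuTRAP over VGAT;NuTRAP with their standard error, from edgeR's quasi-likelihood test with the batch label as a term. A gene was called at an adjusted p below 0.05 and is named enriched when its log2 fold change also passed 1 in size. The labels split the libraries into batches: 4 old DAT;NuTRAP and 2 old VGAT;NuTRAP libraries belong to the first, 5 and 6 to the second, and nothing says whether a batch name marks the same sequencing run in both models. The 5 DAT;NuTRAP libraries of the second batch had no read for 360 to 2265 of the tested genes, against 28 to 252 in the other 12 libraries. Female 2 of old DAT;NuTRAP was the shallowest library and the one with 2265 such genes, male 5 of old DAT;NuTRAP had 9.40% of its reads in 10 genes against 2.92% to 4.76% elsewhere, and male 2 of old VGAT;NuTRAP held 5.12 CPM of Xist beside 94.6 CPM of Ddx3y. Because the models were also separate crosses and separate count tables, a difference between the tables and a difference between the cell types cannot be told apart.

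The markers of both cell types separated the libraries completely. Th, the rate-limiting enzyme of dopamine synthesis (chromosome 7, 142443466 to 142484865, minus strand, GRCm39), ranged from 2839 to 4477 CPM with a median of 3490 in old DAT;NuTRAP and from 321 to 457 CPM with a median of 408 in old VGAT;NuTRAP. No library of one model reached the other, and the log2 fold change was 3.23 ± 0.09 (SE, n = 9 and 8, adjusted p = 2.73e-16 by edgeR), a 9.36-fold difference. Slc6a3, the transporter that clears dopamine (chromosome 13, 73684866 to 73726801), lay between 2575 and 4107 CPM (median 3287) against 644 to 1042 CPM (median 920), a log2 fold change of 1.94 ± 0.11 with no overlap.

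The GABA markers ran the other way. Gad1 (chromosome 2, 70383416 to 70432372) ranged from 76.8 to 182 CPM (median 138) in old DAT;NuTRAP and from 1394 to 2290 CPM (median 1545) in old VGAT;NuTRAP. Its log2 fold change of -3.83 ± 0.10 (adjusted p = 1.53e-16 by edgeR), a 14.2-fold difference, was the strongest contrast by p of any gene tested. Gad2 (chromosome 2, 22511862 to 22583886) stood at 69.1 to 192 CPM against 1342 to 1524 CPM, a log2 fold change of -3.47 ± 0.15. Slc32a1 (chromosome 2, 158452605 to 158464883) stood at 70.7 to 131 CPM against 319 to 543 CPM, a log2 fold change of -2.06 ± 0.11. All 5 genes kept their direction and call within each batch, and Slc6a3 was the only 1 of them whose contrast differed between the batches: 2.50 in the first and 1.65 in the second (difference -0.82 ± 0.14, adjusted p = 0.000332 by edgeR).

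**Figure D1:**
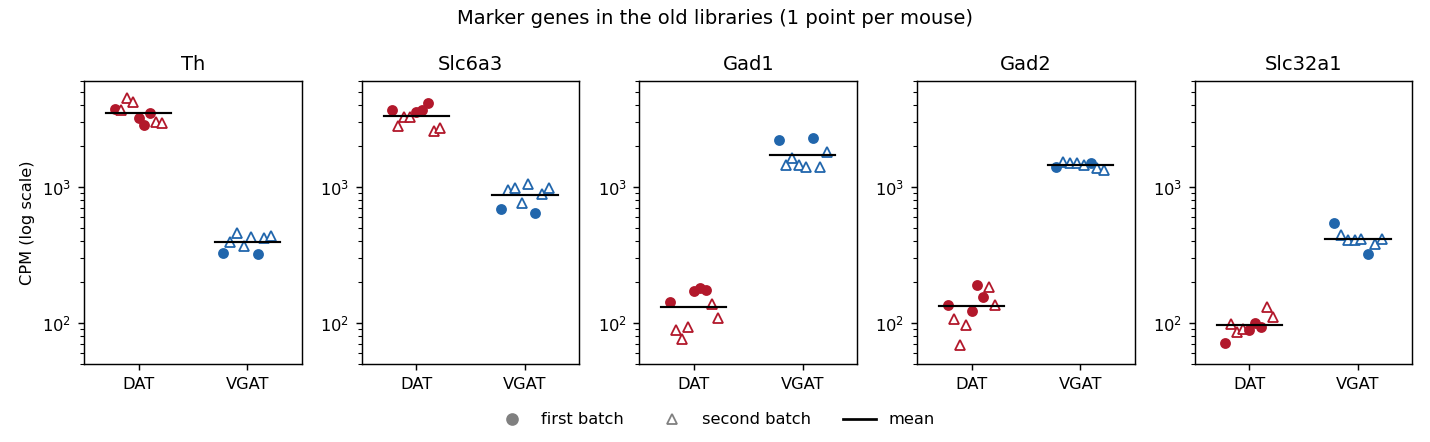
CPM of the 5 marker genes on a log axis in each of the 17 old libraries, with DAT;NuTRAP in red, VGAT;NuTRAP in blue, a filled circle for the first batch, an open triangle for the second, and a bar at the mean. For every gene the 9 and the 8 libraries form groups that do not overlap, with Th at 2839 to 4477 CPM against 321 to 457 CPM and Gad1 at 76.8 to 182 CPM against 1394 to 2290 CPM.

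Per kilobase of annotated exon, Slc6a3 stood at a mean of 656 CPM per kb in old DAT;NuTRAP. Th stood at 493, Gad2 at 20.4, Slc32a1 at 19.3 and Gad1 at 12.5. In old VGAT;NuTRAP the values were Gad2 at 222, Slc6a3 at 173, Gad1 at 164, Slc32a1 at 83.0 and Th at 55.5 CPM per kb. The divisor was the annotated exon length of the gene (10413 bases for Gad1), not the length of the transcripts measured. The order of genes on this scale depends on that annotation, so it does not rank their abundance. Transcripts of each neuron type were thus measured in the libraries of the other as well, at a level that bulk pull-down cannot assign to cells, and fewer cells of a type cannot be told apart from less RNA per cell.

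Across all genes, 3751 were called higher in old DAT;NuTRAP (24.2% of those tested) and 3823 higher in old VGAT;NuTRAP (24.7%). Of these, 1281 (8.27%) were enriched in DAT;NuTRAP and 1105 (7.13%) in VGAT;NuTRAP. For 1061 genes (6.85%) every DAT;NuTRAP library lay above every VGAT;NuTRAP library, and for 1411 (9.11%) the reverse held. The median log2 fold change of all tested genes was 0.01. This median and the called shares of 24.2% and 24.7% are the background for the gene lists below. Among genes with a mean of at least 5 CPM in the higher group, 822 were enriched in DAT;NuTRAP and 863 in VGAT;NuTRAP. Of the 1281 genes enriched in DAT;NuTRAP, 1 had no read in any of the 6 second-batch VGAT;NuTRAP libraries, the only such gene tested. Of the 1105 genes enriched in VGAT;NuTRAP, 54 (4.89%) had no read in any of the 5 second-batch DAT;NuTRAP libraries. Over all 15495 genes tested, 55 had no read in any of these 5 libraries. None of those 54 reached a mean of 5 CPM in VGAT;NuTRAP. Genes with zeros in only some of these libraries are not in that count, so it does not measure how far zeros touched the calls.

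The genes with the smallest p that were higher in DAT;NuTRAP were led, after Th, by Agpat4 (255 to 403 CPM against 60.1 to 81.3), an acyltransferase of phospholipid synthesis, and Serpine2 (503 to 793 CPM against 131 to 168), a secreted inhibitor of serine proteases. Dlk1, a membrane protein related to Notch ligands, was also among them at 2279 to 3307 CPM against 306 to 659 CPM. The corresponding genes on the GABA side included, beside Gad1, Nefl, the neurofilament light chain of thick axons, at 174 to 239 CPM in DAT;NuTRAP and 615 to 953 CPM in VGAT;NuTRAP. Ppargc1a, a coactivator of mitochondrial genes, and Esrrg, an orphan nuclear receptor, had log2 fold changes of -1.97 ± 0.09 and -2.10 ± 0.09. Gucy1a1, a subunit of the nitric oxide receptor, Steap2, a metalloreductase, Phf24 and Trim37 were also in this set, at log2 fold changes between -2.76 and -1.09. For none of these genes did the libraries of the models overlap, which their choice by small p in the same libraries favours. Over all genes tested, 6.85% had every DAT;NuTRAP library above every VGAT;NuTRAP library and 9.11% the reverse.

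All 9 genes of dopamine synthesis, packaging and reuptake were higher in old DAT;NuTRAP, against a background of 24.2%, with a median log2 fold change of 1.94 beside 0.01 for all genes. Ddc ranged from 1978 to 3402 CPM against 378 to 446 CPM, and Slc18a2, the vesicular monoamine transporter, from 1719 to 2260 CPM against 246 to 394 CPM. Gch1, the first enzyme of the tetrahydrobiopterin cofactor that Th needs, ranged from 108 to 166 CPM against 12.0 to 24.7 CPM. Libraries of the models did not overlap for any of these 3 genes.

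The remaining cofactor genes differed less. Pcbd1, which recycles the cofactor, had a log2 fold change of 1.29 ± 0.10 and Qdpr, which reduces it, 0.68 ± 0.09. The synthesis enzymes Pts and Spr had 0.67 ± 0.13 and 0.59 ± 0.11, and their libraries overlapped between the models. With the first batch alone neither Pts (0.35, adjusted p = 0.123 by edgeR) nor Spr (0.20, adjusted p = 0.342) passed.

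Of 8 genes of monoamine breakdown, 5 were higher in DAT;NuTRAP and 2 in VGAT;NuTRAP. Aldh1a1, an aldehyde dehydrogenase that also marks the ventral tier of the substantia nigra, ranged from 2385 to 3268 CPM against 294 to 473 CPM, a log2 fold change of 2.87 ± 0.09. Maoa, which oxidises dopamine at the outer mitochondrial membrane, had 1.39 ± 0.11, and its relative Maob 1.12 ± 0.21 at a level of only 9.32 to 32.3 CPM in DAT;NuTRAP.

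Of 14 transcription factors that specify or maintain dopamine neurons, 12 were higher in old DAT;NuTRAP and 1 in VGAT;NuTRAP, with a median log2 fold change of 1.79. En1, a homeobox factor needed for the survival of these neurons, ranged from 278 to 516 CPM against 27.1 to 87.4 CPM. Lmx1b (75.2 to 144 CPM against 14.3 to 32.5), Foxa1 (90.4 to 111 against 12.3 to 32.1) and the nuclear receptor Nr4a2 (194 to 284 against 45.2 to 86.4) were separated as completely. Satb1, a chromatin organiser, had a log2 fold change of 1.76 ± 0.11. Otx2, which marks ventral tegmental neurons, was not called: 2.19 to 13.2 CPM in DAT;NuTRAP and 5.76 to 12.3 CPM in VGAT;NuTRAP (adjusted p = 0.25 by edgeR).

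Promoters are shown here because a forkhead motif was held by unequal shares of the promoters of the gene sets. The letters TGTTTAC, bound by FOXA proteins, were searched on both strands of RefSeq promoters (GRCm38.p6, 250 bases before to 50 after a gene's start, 32851 entries). They occurred in 3.65% of all promoters, in 2.65% of those of genes tested, in 4.55% of those of genes enriched in DAT;NuTRAP and in 1.55% of those of genes enriched in VGAT;NuTRAP. Shares are of promoter entries, and a gene can have more than 1 (14671 entries for 11390 of the genes tested). In the sets enriched in DAT;NuTRAP and in VGAT;NuTRAP, AAAGGTCA for NR4A2 was held by 1.28% and 1.16% of promoters. It was in 0.95% of promoters of tested genes and in 1.51% overall. TAATCC for PITX3 had 5.43% and 6.6%, beside 5.58% of promoters of tested genes and 7.06% overall. AGATAA for GATA factors had 7.11% and 6.98%, beside 6.44% of promoters of tested genes and 11.2% overall. None of the 4 motifs lies within another. A match to letters is a description of sequence and not a bound site. The 250 bases before the start are printed for Th, for Cck, Dlk1 and Foxa1, which hold the forkhead letters, and for Gad1, with every match to any of the 4 motifs in capitals, Th having none.
Th, chr7:142899996-142900245, minus strand: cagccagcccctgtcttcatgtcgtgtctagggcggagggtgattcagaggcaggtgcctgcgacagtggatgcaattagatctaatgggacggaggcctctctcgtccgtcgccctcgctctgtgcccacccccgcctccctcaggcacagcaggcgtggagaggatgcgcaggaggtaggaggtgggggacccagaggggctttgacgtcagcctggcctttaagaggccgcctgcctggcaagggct
Cck, chr9:121495695-121495944, minus strand: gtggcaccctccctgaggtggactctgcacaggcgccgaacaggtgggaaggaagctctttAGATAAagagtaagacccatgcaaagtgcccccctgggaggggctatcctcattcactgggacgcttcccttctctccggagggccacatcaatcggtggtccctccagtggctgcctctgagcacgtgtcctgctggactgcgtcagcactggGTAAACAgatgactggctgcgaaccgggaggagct
Dlk1, chr12:109452573-109452822, plus strand: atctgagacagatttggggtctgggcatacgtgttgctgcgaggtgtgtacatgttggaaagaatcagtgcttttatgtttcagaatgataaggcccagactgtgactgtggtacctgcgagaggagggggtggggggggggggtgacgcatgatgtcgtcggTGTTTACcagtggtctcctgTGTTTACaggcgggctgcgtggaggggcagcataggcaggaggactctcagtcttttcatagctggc
Foxa1, chr12:57546112-57546361, minus strand: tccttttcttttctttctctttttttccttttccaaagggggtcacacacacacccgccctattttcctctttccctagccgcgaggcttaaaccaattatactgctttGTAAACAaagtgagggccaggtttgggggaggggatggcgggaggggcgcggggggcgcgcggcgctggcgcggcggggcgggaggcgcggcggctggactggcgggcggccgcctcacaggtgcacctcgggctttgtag
Gad1, chr2:70561879-70562128, plus strand: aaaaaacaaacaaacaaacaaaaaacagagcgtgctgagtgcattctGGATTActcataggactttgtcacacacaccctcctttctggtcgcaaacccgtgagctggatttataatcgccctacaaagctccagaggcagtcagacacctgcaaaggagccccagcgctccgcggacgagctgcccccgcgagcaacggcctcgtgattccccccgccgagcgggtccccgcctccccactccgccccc

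Of 23 markers of dopamine neuron subtypes, 17 were higher in old DAT;NuTRAP and none in VGAT;NuTRAP, and all 17 were enriched. Cck, the cholecystokinin precursor, ranged from 70.2 to 254 CPM against 9.60 to 17.4 CPM, a log2 fold change of 3.54 ± 0.14. Anxa1, an annexin of a nigral subtype, ranged from 83.1 to 171 CPM against 8.28 to 18.4 CPM. Both sets of libraries were apart from each other by several fold.

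Other subtype markers covered both tiers of the region. Ntsr1, a neurotensin receptor, and Lmo3, a LIM-only regulator, had log2 fold changes of 2.56 ± 0.14 and 1.47 ± 0.08, and Calb1, the calcium buffer of the dorsal tier, 1.89 ± 0.11. Aldh1a7 had 2.51 ± 0.13, although its sequence is close to that of Aldh1a1 and reads may have been split between them. Slc17a6, the vesicular glutamate transporter used by some dopamine neurons, was not called at 38.6 to 158 CPM against 42.7 to 104 CPM. Vip was not called either: 8 DAT;NuTRAP libraries lay between 1.27 and 10.2 CPM and female 1 at 103 CPM, against 1.36 to 13.6 CPM in VGAT;NuTRAP.

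Of 4 dopamine receptor genes tested, 1 was called, higher in DAT;NuTRAP, and the median of the list was -1.25. Drd2, the inhibitory autoreceptor, ranged from 568 to 813 CPM against 83.6 to 142 CPM, a log2 fold change of 2.62 ± 0.09, whereas Drd1 stood at 0 to 2.49 CPM against 1.90 to 5.89 CPM and was not called. Of 11 nicotinic receptor subunits tested, 5 were higher in DAT;NuTRAP and 2 in VGAT;NuTRAP. Chrna6 (637 to 880 CPM against 99.5 to 163), Chrnb3 (375 to 487 against 65.4 to 108) and Chrna4 (677 to 963 against 240 to 295) form the receptors of dopamine terminals and did not overlap.

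Chrna2 had the opposite direction, at 0.07 to 8.89 CPM in DAT;NuTRAP against 6.03 to 69.1 CPM in VGAT;NuTRAP (log2 fold change -3.71 ± 0.48). It did not pass in the first batch alone (-3.79, adjusted p = 0.132 by edgeR). Chrna5 was not called over all libraries (0.24 ± 0.31), but its direction differed by batch. It had 1.87 in the first (adjusted p = 0.00908 by edgeR) and -0.41 in the second (adjusted p = 0.0486). That difference was called (-2.26 ± 0.37, adjusted p = 0.000332 by edgeR). Of 10 GDNF and neurotrophin receptor genes, 4 were higher in DAT;NuTRAP and 5 in VGAT;NuTRAP. Ret, the signalling receptor for GDNF, ranged from 1913 to 4010 CPM against 457 to 731 CPM. Ntn1, a guidance cue, had a log2 fold change of 2.27 ± 0.12, although 20 of the 43 axon guidance genes were higher in VGAT;NuTRAP and 5 in DAT;NuTRAP. In the first batch alone 11 axon guidance genes were called each way with a median of 0.13, and in the second 25 and 5 with a median of -0.59.

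Among 18 synuclein and inherited Parkinson disease genes, 7 were higher in old DAT;NuTRAP and 6 in old VGAT;NuTRAP, shares not far from the background in both directions, with a median of 0.12. Sncg, gamma-synuclein, ranged from 483 to 842 CPM against 79.1 to 97.5 CPM, and Uchl1, a deubiquitinase, had 1.23 ± 0.08. Vps13c, a lipid transfer protein (-1.48 ± 0.13), and Synj1, a phosphatase of vesicle recycling (-0.70 ± 0.10), were higher in VGAT;NuTRAP. Synj1 did not pass in the first batch alone (-0.24, adjusted p = 0.151 by edgeR).

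Of 8 genes of GABA synthesis, transport and breakdown, 6 were higher in old VGAT;NuTRAP, against a background of 24.7%, and in all 6 no library overlapped. Beside Gad1, Gad2 and Slc32a1 they included the breakdown enzymes Abat (326 to 615 CPM against 693 to 892) and Aldh5a1 (127 to 167 CPM against 219 to 251). Slc6a11, a GABA transporter used mainly by astrocytes, was higher in DAT;NuTRAP with a log2 fold change of 1.05 ± 0.15, and astrocyte markers were higher there too (values are given further on). Slc6a13, at a median of 1.01 CPM, was not called (0.91 ± 0.84).

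Of 25 transcription factors of GABA neurons, 17 were higher in old VGAT;NuTRAP and all 17 were enriched, with a median of -2.65 for the list, and 2 were higher in DAT;NuTRAP. Gata3 ranged from 1.31 to 6.21 CPM against 24.9 to 83.2 CPM (log2 fold change -3.52 ± 0.25). Tal1 (3.34 to 6.59 CPM against 31.1 to 107), Zfpm2 (1.25 to 7.66 against 27.6 to 47.2), Six3 (3.03 to 8.12 against 29.0 to 88.3) and Meis2 (3.62 to 19.6 against 55.8 to 109) showed the same separation. Lhx5, a LIM homeobox factor, had -2.44 ± 0.18.

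For Dlx1, a homeobox factor of forebrain interneurons, the VGAT;NuTRAP libraries fell apart by batch. It stood at 1.74 and 0.40 CPM in the 2 first-batch VGAT;NuTRAP libraries and at 15.1 to 29.3 CPM in the 6 of the second. DAT;NuTRAP libraries held 0 to 5.06 CPM except female 2 at 16.2 CPM. Dlx1 was not called over all libraries (-1.64 ± 0.78, adjusted p = 0.0947 by edgeR). Its contrast between the models was not called different between the batches (adjusted p = 0.649 by edgeR). The split of the VGAT;NuTRAP libraries by batch was not tested.

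**Figure D2:**
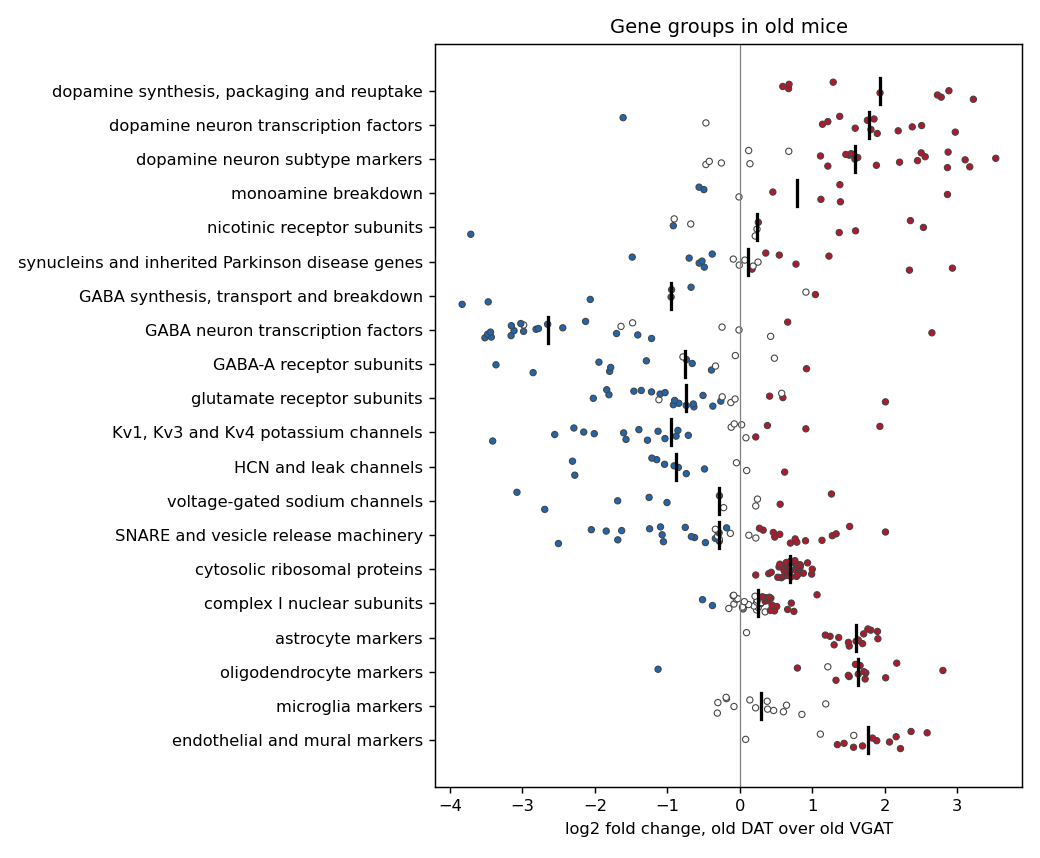
Log2 fold change, old DAT;NuTRAP over old VGAT;NuTRAP, of every tested member of 20 gene groups, 1 point per gene, filled red or blue where the adjusted p is below 0.05 and white otherwise, with a black bar at the group's median. Dopamine groups sit to the right with medians of 1.94, 1.79 and 1.59, the GABA factors to the left at -2.65, and the microglial markers hold no called gene.

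GABA-A receptor subunits, which receive the inhibition, were mostly higher in old VGAT;NuTRAP: 9 of 14 tested, with 1 in the other direction and a median of -0.76. In the first batch the counts were 6 and 1 (median -0.34), and in the second 11 and 1 (median -1.07). The difference between batches was called for 3 of the 14. Gabrb2, a beta subunit, had a log2 fold change of -3.37 ± 0.30. Gabra4 was the exception at 58.3 to 99.9 CPM in DAT;NuTRAP against 26.2 to 47.6 CPM, and Gabrb1 was not called (59.4 to 210 CPM against 83.2 to 218).

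Of 10 genes of glycine receptors and the inhibitory postsynapse, 6 were higher in VGAT;NuTRAP and 1 in DAT;NuTRAP. Glutamate receptor subunits followed, with 17 of 25 higher in VGAT;NuTRAP, 3 higher in DAT;NuTRAP and a median of -0.74. Their counts were 13 and 3 in the first batch (median -0.44) and 16 and 2 in the second (median -0.81). The difference between batches was called for 7 of the 25. Grik2, a kainate receptor subunit, had a log2 fold change of -2.02 ± 0.18, and the metabotropic receptors Grm7 and Grm8 had -1.36 ± 0.13 and -1.84 ± 0.22. Grin2c, an NMDA receptor subunit, was higher in DAT;NuTRAP at 31.5 to 41.9 CPM against 4.08 to 13.5 CPM.

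Of 22 Kv1, Kv3 and Kv4 channel genes, 14 were higher in VGAT;NuTRAP and 4 in DAT;NuTRAP. Kcnc1, a Kv3 channel that repolarises fast spikes, ranged from 99.2 to 195 CPM against 479 to 643 CPM. The Kv4 partner Kcnip1 had -2.29 ± 0.15, while another partner, Kcnip3, was higher in DAT;NuTRAP at 1.94 ± 0.12.

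The sodium channels Scn1a (43.1 to 164 CPM against 461 to 642), Scn8a (97.9 to 169 against 346 to 465) and the resurgent-current subunit Scn4b (14.5 to 46.5 against 123 to 453) were higher in VGAT;NuTRAP without overlap. The auxiliary subunit Scn3b ran the other way at 404 to 510 CPM against 149 to 240 CPM. Over the 11 sodium channel genes tested, 6 were higher in VGAT;NuTRAP and 2 in DAT;NuTRAP. In the first batch 4 were called each way (median -0.02), and in the second 7 and 1 (median -0.50).

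Pacemaker and leak channels gave 9 of 12 genes higher in VGAT;NuTRAP and 1 higher in DAT;NuTRAP. Hcn2, a pacemaker channel, had a log2 fold change of -0.74 ± 0.09 and the leak channel Kcnk3 -2.31 ± 0.26. Of 10 SK, BK and Kv7 genes 4 were higher in VGAT;NuTRAP and 2 in DAT;NuTRAP, and of 8 GIRK and ATP-sensitive channel genes 5 and 1. Over all genes tested the shares were 24.7% and 24.2%. The GIRK and ATP-sensitive list had 5 and 2 called in the first batch and 5 and 0 in the second. Kcnn3, the SK channel that steadies dopamine pacemaking, was higher in DAT;NuTRAP at 96.5 to 246 CPM against 27.3 to 65.7 CPM. Kcnj3, a G protein-gated channel subunit, had -1.67 ± 0.17, and Kcnj5 stood at 0 to 3.91 CPM against 9.95 to 17.8 CPM.

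Kcnj6, whose channel carries the Drd2 current, was called higher in DAT;NuTRAP (1.12 ± 0.39, adjusted p = 0.026 by edgeR), but the libraries did not move as 1 group. First-batch DAT;NuTRAP libraries stood at 62.4 to 88.7 CPM, the second-batch ones at 15.2 to 31.3 CPM except male 5 at 107 CPM, and VGAT;NuTRAP at 12.4 to 32.7 CPM. The log2 fold change was 2.49 in the first batch and 0.54 in the second (adjusted p = 0.34 by edgeR), a difference that was not called (adjusted p = 0.0818). Without DAT;NuTRAP male 5 it was 0.63 (adjusted p = 0.178 by edgeR), without VGAT;NuTRAP female 1 0.91 (0.0839) and without VGAT;NuTRAP male 1 0.87 (0.0818).

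Of 16 voltage-gated calcium channel genes, 6 were higher in DAT;NuTRAP and 4 in VGAT;NuTRAP, beside 24.2% and 24.7% of all genes tested. The counts were 7 and 4 in the first batch (median 0.44) and 2 and 5 in the second (median -0.04). The T-type channels Cacna1i and Cacna1h had -2.03 ± 0.26 and -1.40 ± 0.13, and the auxiliary Cacnb3 1.04 ± 0.07. Among 11 calcium buffers, 3 were higher in DAT;NuTRAP and 5 in VGAT;NuTRAP, beside the same shares of all genes. Calb2 was higher in DAT;NuTRAP (441 to 602 CPM against 210 to 286) and Pvalb, typical of fast-spiking neurons, in VGAT;NuTRAP (19.0 to 41.2 CPM against 82.8 to 603).

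Release machinery genes went both ways. Of 38 SNARE and vesicle genes, 14 were higher in DAT;NuTRAP and 18 in VGAT;NuTRAP, with 13 and 11 in the first batch and 12 and 18 in the second. Vamp2 (2029 to 2516 CPM against 1221 to 1575), the complexins Cplx1 (3399 to 6452 against 1930 to 3264) and Cplx2 (1667 to 2193 against 760 to 1034), and the vesicle protein Sv2c (524 to 1468 against 146 to 369) were higher in DAT;NuTRAP. Vamp1 (127 to 275 CPM against 770 to 1850) and the ATPase Nsf (803 to 1285 against 1524 to 1976) were higher in VGAT;NuTRAP, and in all 6 genes the models did not overlap. Of 16 synaptotagmins, the calcium sensors of release, 8 were higher in DAT;NuTRAP and 4 in VGAT;NuTRAP, beside 24.2% and 24.7% of all genes tested. Syt2 was higher in VGAT;NuTRAP (-2.85 ± 0.18) and Syt17 in DAT;NuTRAP (1.803 ± 0.103).

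Of 23 tested neuropeptide precursors, 7 were higher in DAT;NuTRAP and 6 in VGAT;NuTRAP, shares not far from the background of 24.2% and 24.7%. In the first batch the counts were 9 and 4 of 23 (median 0.78), against a background of 14.7% and 15.0%. In the second they were 6 and 7 of 25 (median -0.16), against 21.5% and 23.9%. Grp (19.2 to 69.5 CPM against 5.36 to 9.79) and Adcyap1 (37.97 to 79.5 against 11.03 to 23.8) were on the dopamine side with Cck. Sst, somatostatin, was on the GABA side at 11.9 to 64.9 CPM against 33.5 to 256 CPM, with overlap, and did not pass in the first batch alone (-1.90, adjusted p = 0.103 by edgeR).

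Of the 5 opioid and cannabinoid receptor genes tested, 4 were higher in VGAT;NuTRAP. Cnr1, the cannabinoid receptor of GABA terminals, ranged from 9.60 to 26.7 CPM against 67.4 to 202 CPM, and Oprm1, the mu receptor, from 0 to 2.43 CPM against 4.14 to 9.64 CPM. Oprk1, the kappa receptor, was higher in DAT;NuTRAP at 50.0 to 99.5 CPM against 23.6 to 33.7 CPM, and so was the neurokinin receptor Tacr3 (1.63 ± 0.23). Of 33 neuropeptide and hormone receptors, 8 were higher in DAT;NuTRAP and 12 in VGAT;NuTRAP, and of 15 immediate early genes 1 and 3. Over all genes tested the shares were 24.2% and 24.7%. The receptors had 10 and 7 in the first batch and 8 and 11 in the second, and the median of the immediate early genes went from 0.52 to -0.39.

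The largest fold differences at 5 CPM or more included genes outside the lists. On the dopamine side these were Ndc80, a kinetochore protein (2.96 to 10.1 CPM against 0 to 0.84), Vill, related to villin (45.4 to 60.3 against 3.47 to 7.50), Emilin2, a matrix glycoprotein (8.19 to 18.8 against 0.91 to 2.40), the lipase Lpl (13.5 to 67.2 against 2.997 to 6.41), the peptide receptor Npbwr1 (7.17 to 30.0 against 1.58 to 3.51), Lmcd1 (6.70 to 21.3 against 0.79 to 2.44) and Sult5a1 (0.07 to 9.40 against 0.30 to 0.89). Only Sult5a1 overlapped. On the GABA side, the glycine transporter Slc6a5 (0 to 3.86 CPM against 4.14 to 16.5), the muscarinic receptor Chrm2 (2.73 to 14.7 against 72.3 to 147) and the sphingosine kinase Sphk1 (0 to 1.98 against 3.84 to 10.2) did not overlap, whereas Nhlh1, Pla2g2f, Kctd16 and the peptide precursor Rln3 did. Rln3 stood at 0.67 to 63.5 CPM in VGAT;NuTRAP and did not pass in the second batch alone (-2.83, adjusted p = 0.0579 by edgeR). In the first batch alone Slc6a5 (-2.71, adjusted p = 0.16 by edgeR), Kctd16 (-0.99, 0.176) and Lpl (3.08, 0.101) did not pass.

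The contrast itself differed between the batches for 2016 genes (13.0% of those tested, edgeR test of the batch by model term), so the lists were also read within each batch. Named genes with such a difference included, beside Kcnn3, Gabra4 (1.64 in the first batch, 0.58 in the second), Ret (2.88 and 1.95) and Nr4a2 (2.51 and 1.60). Others were Foxa1 (2.85 and 1.87), Calb1 (2.37 and 1.64), Hcn2 (-1.19 and -0.54), Pvalb (-4.07 and -2.29) and Cnr1 (-1.94 and -3.33). Each of these kept its direction and call in both batches. Called shares in the first batch were 14.7% higher in DAT;NuTRAP and 15.0% higher in VGAT;NuTRAP, and in the second batch 21.5% and 23.9%. The medians of the dopamine and GABA lists kept their sign in both, with 7 of the 9 dopamine synthesis genes called in the first batch and 9 in the second: the medians were 2.50 and 1.65 for dopamine synthesis, 2.36 and 1.51 for dopamine factors, 2.41 and 1.53 for subtype markers, -0.70 and -1.16 for GABA synthesis and -2.53 and -2.74 for GABA factors.

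Ribosomal protein genes differed between the models mainly in the second batch. All 39 genes tested for cytosolic ribosomal proteins were called higher in DAT;NuTRAP over all libraries, with a median of 0.69. Their summed level was 6485 to 7667 CPM in first-batch DAT;NuTRAP against 6244 to 7466 CPM in first-batch VGAT;NuTRAP, and 10410 to 12570 CPM against 5592 to 6224 CPM in the second batch. In the first batch 2 were higher in DAT;NuTRAP and 1 in VGAT;NuTRAP with a median of 0.00, in the second all 39 were higher with a median of 1.06, and the difference between batches was called for 37. Rps2 had 0.47 and 1.24, and Rpl13 had 0.41 (adjusted p = 0.0715 by edgeR) and 1.26. These genes have many processed copies in the genome, and reads may have been shared with them.

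Medians of the nuclear respiratory chain genes changed sign between the batches. Of 36 complex I genes, 15 were higher in DAT;NuTRAP and 2 in VGAT;NuTRAP over all libraries, but the counts were 1 and 16 in the first batch and 26 and 2 in the second, with medians of -0.31 and 0.53. For complexes III, IV and V the counts were 0 and 22, then 26 and 1, with medians of -0.40 and 0.44. Ndufs1, a large catalytic subunit of complex I, was higher in VGAT;NuTRAP in both batches (-0.66 and -0.47), and so was Atp5f1b of the ATP synthase (-0.45 and -0.28). Ndufv3, a small complex I subunit, was higher in DAT;NuTRAP in both (0.39 and 1.39), and Uqcr11 of complex III was called only in the second (0.50, adjusted p = 0.2 by edgeR, and 0.98).

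Of 19 glycolysis genes 8 were higher in DAT;NuTRAP and 4 in VGAT;NuTRAP, and of 24 antioxidant genes 11 and 5, with a difference between batches called for 7 and 5 of them. In the first batch the counts were 3 and 5 for glycolysis and 3 and 4 for antioxidant genes, and in the second 10 and 3, and 11 and 4. Ldha, lactate dehydrogenase, ranged from 196 to 357 CPM against 112 to 155 CPM and Eno2, the neuronal enolase, from 1012 to 1232 CPM against 1268 to 1842 CPM, each without overlap. Prdx6, a peroxiredoxin, was higher in DAT;NuTRAP (75.8 to 137 CPM against 36.4 to 48.3) and Sod2, the mitochondrial superoxide dismutase, in VGAT;NuTRAP (157 to 235 against 301 to 359).

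**Figure D3:**
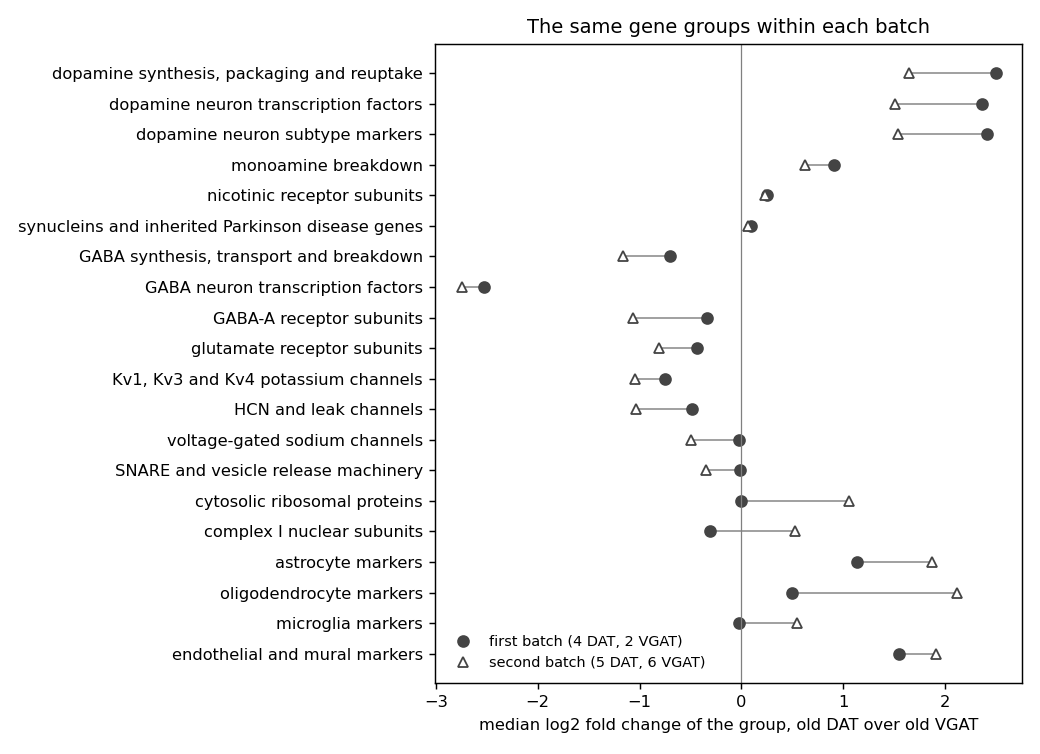
Median log2 fold change, old DAT;NuTRAP over old VGAT;NuTRAP, of the same 20 gene groups fitted within the first batch (filled circle, 4 and 2 libraries) and within the second batch (open triangle, 5 and 6 libraries). Dopamine and GABA groups stay on their side of 0, whereas complex I passes from -0.31 to 0.53, ribosomal proteins from 0.00 to 1.06 and oligodendrocyte markers from 0.50 to 2.12.

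Markers of other cells were measured too and were not equal between the models. Summed astrocyte markers lay at 644 to 1905 CPM in old DAT;NuTRAP and 341 to 623 CPM in old VGAT;NuTRAP, and 14 of 15 were called higher in DAT;NuTRAP with a median of 1.61. Gja1, the astrocyte gap junction protein, ranged from 25.8 to 70.4 CPM against 11.9 to 22.3 CPM, Mlc1 from 32.0 to 84.0 against 7.50 to 24.2 CPM, and the glutamate transporter Slc1a2 from 288 to 1273 against 120 to 361 CPM. In the first batch 11 of the 15 were still called, with a median of 1.14.

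Oligodendrocyte markers summed to 660 to 2534 CPM against 290 to 1092 CPM, with 13 of 15 called higher in DAT;NuTRAP and 1, Ugt8a, in VGAT;NuTRAP. Sums and calls were not the same in both batches. In the first the sums were 660 to 831 CPM against 450 to 753 CPM, with 2 markers called higher in DAT;NuTRAP and 1 in VGAT;NuTRAP. In the second they were 1495 to 2534 CPM against 290 to 1092 CPM, with 12 and 1 called. The difference between batches itself was called for 4 of the 15. Mog and Mobp, proteins of myelin, had 2.02 ± 0.43 and 1.50 ± 0.29, and Mog had 0.53 in the first batch alone (adjusted p = 0.307 by edgeR). For neither was the difference between batches called (adjusted p = 0.0562 for Mog and 0.0511 for Mobp by edgeR).

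Endothelial and mural markers summed to 141 to 350.5 CPM against 50.9 to 98.0 CPM, with 11 of 14 called higher in DAT;NuTRAP, among them Cldn5 of the tight junction (2.22 ± 0.25) and Vtn (2.59 ± 0.40). Of 6 markers of oligodendrocyte precursors, 3 were higher in DAT;NuTRAP and 1 in VGAT;NuTRAP. No microglial marker of 14 tested was called in either direction, with sums of 57.5 to 157 CPM against 26.1 to 215 CPM. The part of these cells in the differences between the models was not tested.

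Markers of other neurons were mixed. The serotonin list summed to 12.9 to 33.0 CPM in DAT;NuTRAP and 97.8 to 139 CPM in VGAT;NuTRAP, but its 2 called members were Htr1a, a serotonin receptor, and Gata3, which is also on the list of GABA factors, while the defining Tph2 (at most 16.9 CPM against at most 15.2) and Slc6a4 (0 to 7.83 against 0.04 to 6.19) were low in both and not called. Of 8 markers of glutamate neurons 2 were called, both higher in DAT;NuTRAP, and of 3 noradrenergic and cholinergic markers 1. This was Chat, the enzyme of acetylcholine, which was higher in DAT;NuTRAP at 2.07 to 7.61 CPM against 0.44 to 1.52 CPM.

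**Figure D4:**
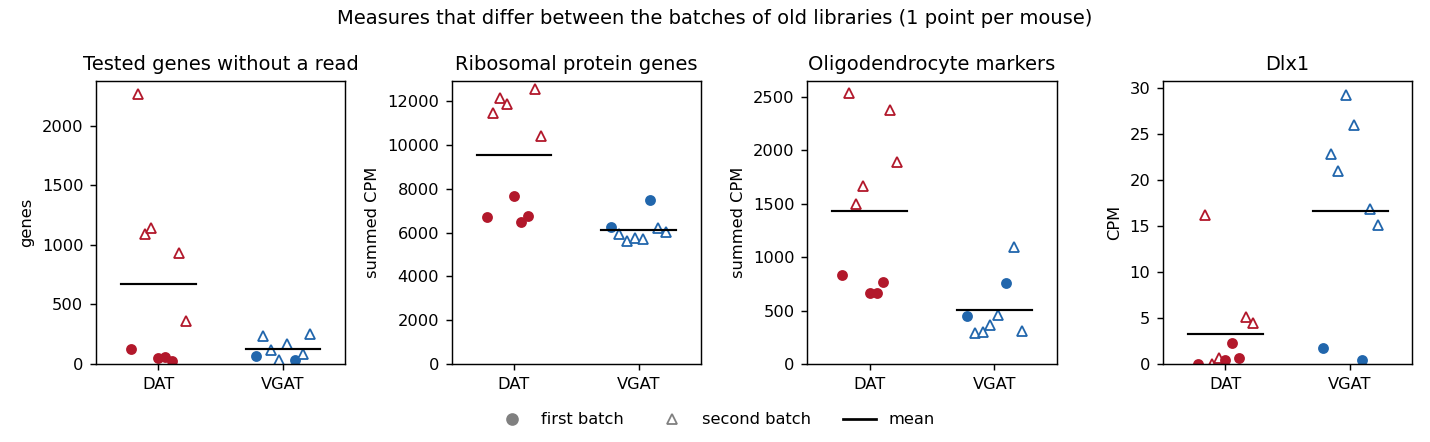
Tested genes without a read, summed CPM of ribosomal protein genes, summed CPM of oligodendrocyte markers and CPM of Dlx1 in each of the 17 old libraries, with DAT;NuTRAP in red, VGAT;NuTRAP in blue, filled circles for the first batch, open triangles for the second and a bar at the mean. The 5 second-batch DAT;NuTRAP libraries stand above the rest in ribosomal protein level (10410 to 12570 CPM), and the 2 first-batch VGAT;NuTRAP libraries stand at 1.74 and 0.40 CPM for Dlx1.

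Whether the contrast was kept with age was asked against the 20 young libraries. There, 4080 genes were higher in DAT;NuTRAP (27.0%) and 4100 in VGAT;NuTRAP (27.1%), with 1300 (8.59%) and 1149 (7.60%) enriched. Of the 1284 genes enriched in young DAT;NuTRAP that were tested in old mice, 1276 had the same sign, 1061 were called higher again, and the median log2 fold change was 1.52 in young and 1.48 in old mice. Of the 1136 enriched in young VGAT;NuTRAP, 1132 had the same sign and 978 were called, with medians of -1.57 and -1.41. These genes were picked for a large value in the young libraries, so some shrinkage in the other set of libraries follows from the choice.

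The enriched lists overlapped by 953 genes on the dopamine side, 74.4% of the old and 73.3% of the young list, and by 849 on the GABA side, 76.8% and 73.9%. No gene among the 6512 called at both ages changed sign. Over the 14987 genes tested at both ages, the log2 fold changes had a Pearson correlation of 0.874 and a Spearman correlation of 0.884, given as a description across genes, which are not independent and which share the batches named above.

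The test of the change itself, the difference between old and young contrasts in 1 fit over all 37 libraries, called 0 of 16898 genes (0%), with 467 at an unadjusted p below 0.05 (2.76%) and a smallest adjusted p of 0.206. DESeq2 called 1 gene. For Th the change in log2 contrast was -0.14 (95% interval -0.57 to 0.29), for Slc6a3 -0.26 (-0.73 to 0.22), for Gad1 0.02 (-0.35 to 0.40), for Gad2 -0.15 (-0.64 to 0.34) and for Slc32a1 0.08 (-0.24 to 0.40). Each interval holds 0 and bounds the change these libraries could have missed.

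Medians of the dopamine and GABA lists read within the batches above kept their sign at both ages. Dopamine synthesis had 1.94 in old and 2.14 in young mice, dopamine factors 1.79 and 1.88, and subtype markers 1.59 and 1.86, each lower in old mice. GABA synthesis had -0.94 and -0.88, and GABA factors -2.65 and -2.64. Ribosomal protein genes had 0.69 and 0.76, and astrocyte markers 1.61 and 1.52. Among other lists, neuropeptide precursors had -0.25 and 0.09, microglial markers 0.30 and -0.26, and GABA-A receptor subunits -0.76 and -1.05. Changes of list medians with age were not tested.

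The genes with the smallest p for a change with age are given as values, since none passed the correction. Olfml2b, an olfactomedin-like matrix protein, had -0.44 in young and 1.51 in old mice, at 4.81 to 11.8 CPM in old DAT;NuTRAP against 1.94 to 3.58 CPM in old VGAT;NuTRAP (change 1.94 ± 0.39, adjusted p = 0.206 by edgeR). Crhbp, which binds corticotropin-releasing hormone, had -0.80 and -1.51, and Rap2c, a small GTPase, -0.25 and -0.98. The integrin Itga6 had -0.01 and 0.97, Tox2 0.22 and 0.60, and the syndecan Sdc2 1.52 and 1.16.

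**Figure D5:**
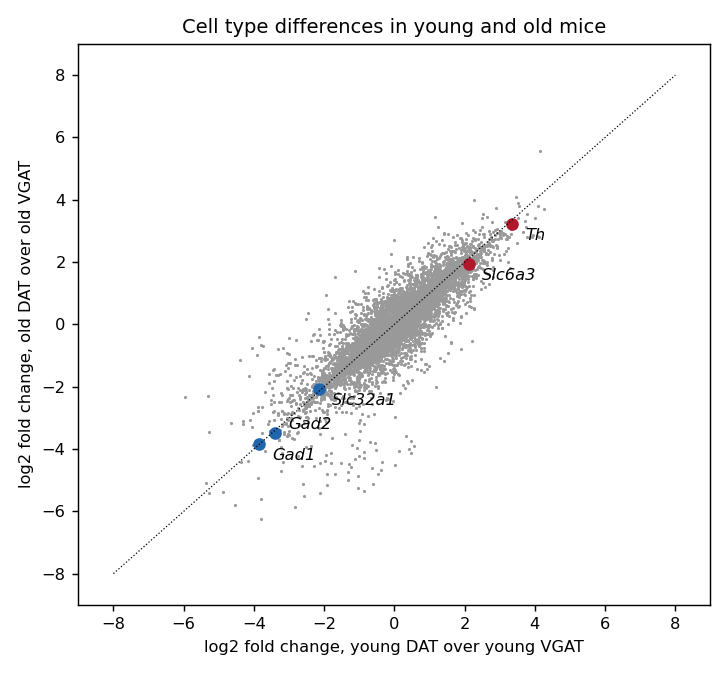
Log2 fold change, DAT;NuTRAP over VGAT;NuTRAP, in young mice (horizontal axis) and in old mice (vertical axis) for each of the 14987 genes tested at both ages, with the 5 marker genes coloured and a dotted line of equality. The marker genes lie close to the line, Th at 3.36 and 3.23 and Gad1 at -3.85 and -3.83.

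Within the old mice, the contrast differed between the sexes for 2 genes (0.0129% of those tested), with 1069 at an unadjusted p below 0.05 (6.90%). Both, Isl1 and Dlx2, encode homeobox factors of forebrain and other neurons and were scarce: Isl1 was 0 in all 4 DAT;NuTRAP females and 0.18 to 4.82 CPM in the 5 males, against 0.16 to 10.6 CPM in VGAT;NuTRAP females and 0.09 to 6.90 CPM in males. Dlx2 was 0 in 4 of 4 DAT;NuTRAP females and 0 to 1.73 CPM in males, against 0.53 to 9.56 and 0.35 to 4.31 CPM. Their low values in VGAT;NuTRAP were the first-batch libraries, as for Dlx1, and without the batch term neither passed (adjusted p = 0.856 by edgeR). Lratd1, which follows in order of p, did not pass either (adjusted p = 0.0907).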

How the data were processed

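Reads were mapped to mm39 (GRCm39) by STAR 2.7.10b, and the authors obtained gene counts with featureCounts (version and strand setting not given in the sources used here). The deposited tables hold raw counts for 57180 genes. Libraries were paired-end and strand-directed. The old columns of both tables were joined by gene identifier. In R 4.3.3, edgeR 4.0.16 was run with TMM factors, filterByExpr (minimum count 10, by model), a robust quasi-likelihood fit of batch and model, and Benjamini-Hochberg adjustment. Young libraries, the change with age (37 libraries) and the sex difference were fitted likewise. Alternatives used DESeq2 1.42.0, limma 3.58.1 and other settings. Libraries are 1 per mouse. The 64 same-model pairs of old libraries were checked for duplicates (lowest chi-square per degree of freedom 6.65). Positions and exon lengths came from GENCODE M39. The tests were tried on simulated counts.

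Members and gene lists were chosen with earlier results of these data known, so a list is described by counts and a median beside those of all genes. Genes named were the 5 markers, both synthesis lists, the 12 smallest p and 10 largest folds (at least 5 CPM) each way, up to 6 called and 2 uncalled members per list, and the 8 smallest p each way for each interaction. Input libraries were not used here. Some genes that these rules name are not reported here.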

Additional observations from a re-analysis of the deposited data

Results flagged for a closer look

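Each old group was looked at for a library far from the rest, by the gap to its neighbour over the range of the group, for 298 pairs of a gene named above and a model. A library stood apart in 23 pairs. Chance alone flags about 1 in 20 such groups.

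In DAT;NuTRAP, female 1 stood apart for Vip (103 CPM), Calb1 (338 CPM), Tacr3 (222 CPM), Slc6a13 (8.54 CPM) and Slc6a5 (3.86 CPM), all as the highest library. Female 2, the shallowest, was highest for Dlx1 (16.2 CPM) and Chrna2 (8.89 CPM), female 4 for Tox2 (215 CPM), and male 2 for Kctd16 (3.32 CPM). Male 4 was highest for the astrocyte and vascular genes Mlc1 (84.0 CPM) and Vtn (47.0 CPM) and for Pla2g2f (1.62 CPM). Male 5 was highest for Gabrb1 (210 CPM), Syt2 (144 CPM) and Crhbp (15.3 CPM).

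In VGAT;NuTRAP, female 1, the mouse of 24 months, was highest for Gabrb2 (400.5 CPM) and Sema3e (57.8 CPM) and lowest for Vamp2 (1221 CPM). Male 1 was lowest for En1 (27.1 CPM) and highest for Nsf (1976 CPM). These are the only 2 first-batch libraries of the model. Male 2 was highest for Gja1 (22.3 CPM), Mog (9.59 CPM) and Vtn (9.37 CPM).

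Isl1 (adjusted p = 0.00466 by edgeR) and Dlx2 (adjusted p = 0.0222) were listed because their contrast between the cell types differed between the sexes in old mice, at the values given above.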

How the results depend on the processing

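Over the alternatives run, the old contrast called 3278 to 4429 genes higher in VGAT;NuTRAP and 3540 to 4315 higher in DAT;NuTRAP, apart from the fits to fewer libraries. With first-batch libraries alone (4 and 2) the counts were 2310 higher in DAT;NuTRAP and 2364 in VGAT;NuTRAP, with males alone (5 and 3) 1937 and 2005, with females alone 2791 and 3170, and with the second batch alone 3386 and 3767. Leaving out each library in turn gave 3490 to 3849 and 3608 to 4083. Leaving out DAT;NuTRAP female 2 and male 5 together, a choice made after the data were seen, gave 3759 and 4122. Genes enriched in VGAT;NuTRAP numbered 1758 without the filter on low counts and 725 with males alone. The low depth of DAT;NuTRAP female 2 limits what can be said of genes under about 1 CPM, which is 13.84 counts there.

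Replicate numbers in the titles did not pair the libraries: the correlation of deviations ranged from -0.062 to 0.186 over 7 pairs of the same sex and number, and 1 of 7 DAT;NuTRAP and 2 of 7 VGAT;NuTRAP libraries correlated best with their own number. Using them as a replicate block kept only the libraries with shared numbers and called 2309 genes higher in DAT;NuTRAP and 2893 in VGAT;NuTRAP. Among the genes named, Kcnj6 alone lost its call under the block (0.60, adjusted p = 0.394 by edgeR).

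For the change with age, DESeq2 called 1 gene and edgeR 0. For the difference between the sexes, DESeq2 called 33 genes with a positive and 1 with a negative difference, and edgeR without the batch term called 0. Leaving out 1 library at a time gave 1 to 132 positive and 0 to 12 negative differences, with 132 and 12 without DAT;NuTRAP female 1, 8 positive ones without DAT;NuTRAP female 2, and 4 without DAT;NuTRAP female 4. The cause was not tested.

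Of the 149 genes looked at under up to 34 settings, 138 were called, and among their 4677 pairs of gene and setting 28 lost the call and 0 changed sign. Of these genes 11 lost it with the first batch alone and 5 with males alone. Sign changes were seen only for genes not called over all libraries. With females alone the log2 fold change was -0.047 for Slc6a13, 0.052 for Otx2 and -0.47 for Slc17a6. With males alone it was 0.052 for Gabrb1, -0.45 for Tph2 and -0.72 for Slc6a4. With the second batch alone it was -0.15 for Slc17a6 and -0.41 for Chrna5, which alone among these passed (adjusted p = 0.0486 by edgeR). With the replicate block it was -1.17 for Slc6a13, -0.15 for Slc17a6 and 0.35 for Vip. Vip, at -0.25 over all libraries, had 0.13 by limma-voom, 1.14 without the batch term, 0.53 with all 37 libraries in the fit, 4.09 in the first batch and 0.37 without DAT;NuTRAP female 2 and male 5. Leaving out 1 library at a time gave -0.82 to 0.10 for Vip, -0.0051 to 0.25 for Slc17a6, -0.090 to 0.36 for Chrna5 and -0.081 to 1.2 for Slc6a4.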

Other observations

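The genes that carry Cre had smaller contrasts than their partners, a comparison chosen after the values were seen. The ratio of Slc6a3 to Th CPM within a library was 0.73 to 1.30 in old DAT;NuTRAP and 2.01 to 2.42 in old VGAT;NuTRAP. The ratio of Slc32a1 to Gad1 was 0.50 to 1.12 in old DAT;NuTRAP and 0.14 to 0.30 in old VGAT;NuTRAP. Young libraries had 0.65 to 1.73 and 1.70 to 2.65 for the former ratio, and 0.37 to 1.72 and 0.10 to 0.28 for the latter.

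Neighbours of these loci were also looked at after the values were seen. Of 13 genes tested with a start within 1 Mb of Slc32a1, 9 were higher in VGAT;NuTRAP, with a median log2 fold change of -0.74, against 24.7% of all genes tested and a median of 0.01, among them Gm14204 (-3.19 ± 0.25), Ralgapb (-0.82 ± 0.08) and Ppp1r16b (-0.74 ± 0.09). Of 24 genes near Slc6a3, 5 were higher in DAT;NuTRAP, against 24.2% of all genes tested, and 4 in VGAT;NuTRAP, with Clptm1l, its nearest called neighbour downstream, at 1.53 ± 0.06. In young mice Clptm1l had 1.58 and Gm14204 -3.08.

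Gene length moved with the contrast. The median exon length was 4794 bases for genes enriched in old DAT;NuTRAP, 7139 bases for those enriched in old VGAT;NuTRAP and 6068 bases for all tested genes. The median log2 fold change was 0.26 over the 3867 shortest genes and -0.24 over the 3861 longest in old mice, and 0.26 and -0.24 in young mice.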
